A study of Mus musculus with 17 samples.

Results

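The genes described here are 10 transcripts that mark microglia, the resident macrophages of the brain, in their homeostatic state: Tmem119, P2ry12, P2ry13, Cx3cr1, Olfml3, Gpr34, Siglech, Fcrls, Sall1 and Slc2a5. They are a list of named genes, picked with earlier results of these data known, and were followed in macrophages grown from bone marrow. All 10 were found among the 37620 gene IDs of the deposited table. Only 6 of them (Tmem119, P2ry12, P2ry13, Cx3cr1, Olfml3 and Fcrls) reached TPM 1 in at least 3 libraries, the level asked of a gene before it was tested, and they belong to 12158 such genes. TPM is an abundance of transcripts, scaled to the same total in every library and corrected for transcript length, so levels of different genes can be set side by side.

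The 17 libraries came from C57BL/6J mouse bone marrow cells grown into macrophages for 7 days with the growth factor M-CSF at 50 ng/ml. The labels give 5 Smad3 wild-type control libraries, 4 Smad3 wild-type libraries treated with transforming growth factor beta 1 (TGF-β1, 5 ng/ml for 5 days), 5 Smad3-knockout controls and 3 Smad3-knockout libraries with TGF-β1. Smad3 carries the TGF-β signal from the receptor to the nucleus, and the study concerns the passage of macrophages to myofibroblast-like cells under TGF-β1. The kind of knockout allele, the age and sex of the mice, and whether the controls spent the added days in culture are not stated in the labels or design text. The labels tie no library to an animal or culture, and the sources disagree on whether a library is a single cell or many cells. The p-values are therefore statements on how far these libraries scatter, which may be technical. If a library holds many cells, fewer cells with a transcript and less transcript per cell cannot be told apart.

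Microglia depend on TGF-β made in the brain, and without its receptor they lose much of the homeostatic programme to which these genes belong. The programme comprises receptors that read the surroundings (the ADP receptors P2ry12 and P2ry13, the fractalkine receptor Cx3cr1, the lysophospholipid receptor Gpr34), surface and secreted proteins (Tmem119, Siglech, Fcrls, Olfml3), a fructose transporter (Slc2a5) and a zinc-finger transcription factor (Sall1) that keeps microglia distinct from other macrophages. Cx3cr1 is also made by monocytes and several tissue macrophages, and Siglech by plasmacytoid dendritic cells, whereas Sall1 is rarely seen in macrophages outside the brain.

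The labels and the markers were read against the libraries first. Smad3 transcript did not follow the genotype labels. Its level lay between 0 and 15.38 TPM in wild type and between 0 and 22.26 TPM in the libraries labelled knockout. It reached TPM 1 in 2 of 9 wild-type and 3 of 8 knockout-labelled libraries. It was at 0 in each of the 4 wild-type libraries with TGF-β1 and at 6.18, 0.01 and 22.26 TPM in those labelled knockout, so "knockout" below is the label only. With the allele not stated and most values at or near 0, the transcript cannot decide whether the labels are right. All 10 pan-macrophage genes (Adgre1, Itgam, Csf1r and others) reached TPM 1 in some library. A library held 7269 to 10307 genes at TPM 1 or more. In 6 libraries (wild-type controls 3, 4 and 5, wild-type TGF-β1 library 3, knockout-labelled control 2 and knockout-labelled TGF-β1 library 2) more than 10% of moderately expressed genes were listed at 0. None of 25 housekeeping genes was listed at 0 anywhere. Of these 25, 1 was called on average, the alpha-tubulin gene Tuba1b, with 1433 ± 602 TPM in controls (SD, n = 10) and 3672 ± 764 TPM with TGF-β1 (SD, n = 7), a log2 difference of 1.44 ± 0.24 (limma adjusted p = 0.0072). Its call was lost in 3 of 28 alternatives, the cell cycle level as a covariate among them. Another of the 25, the ribosomal protein gene Rpl3, did separate the genotype labels. It was at 540.65 TPM or more in wild-type controls and 406.54 TPM or more in wild-type TGF-β1 libraries. With the knockout label it was at most 294.29 TPM in controls and 252.89 TPM with TGF-β1. What underlies this was not tested. Depth cannot be read from TPM and is unknown here.

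To show the DNA next to which these transcripts start, the promoter windows of the 5 testable members found in the RefSeq promoter table (GRCm38.p6) are printed here, from 250 bases before to 50 bases after the start site, 5′ to 3′ along the gene. The table held 8 of the 10 members, with no entry for Tmem119 and Gpr34. Capitals mark every match, on either strand, to CAGAC, the core that Smad proteins recognise, and to GAGGAA, the core recognised by the macrophage factor PU.1.
P2ry12, chr3:59262936-59263235, minus strand: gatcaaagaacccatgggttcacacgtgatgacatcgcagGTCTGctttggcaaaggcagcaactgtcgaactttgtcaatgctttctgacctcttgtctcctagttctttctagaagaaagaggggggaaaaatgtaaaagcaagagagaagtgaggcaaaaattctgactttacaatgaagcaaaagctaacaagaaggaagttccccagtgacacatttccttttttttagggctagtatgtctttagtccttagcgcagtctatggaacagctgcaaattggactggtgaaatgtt
P2ry13, chr3:59210833-59211132, minus strand: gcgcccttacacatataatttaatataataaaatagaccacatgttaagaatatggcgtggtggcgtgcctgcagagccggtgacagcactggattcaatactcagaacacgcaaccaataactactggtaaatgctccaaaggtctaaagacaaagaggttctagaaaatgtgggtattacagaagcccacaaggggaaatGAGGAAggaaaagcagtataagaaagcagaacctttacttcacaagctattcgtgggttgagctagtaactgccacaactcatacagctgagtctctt
Cx3cr1, chr9:120068247-120068546, minus strand: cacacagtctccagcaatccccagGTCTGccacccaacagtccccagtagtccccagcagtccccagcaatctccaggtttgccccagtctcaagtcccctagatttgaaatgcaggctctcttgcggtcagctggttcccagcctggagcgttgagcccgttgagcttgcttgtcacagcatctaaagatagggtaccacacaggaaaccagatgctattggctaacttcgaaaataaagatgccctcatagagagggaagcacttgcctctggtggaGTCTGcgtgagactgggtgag
Olfml3, chr3:103737952-103738251, minus strand: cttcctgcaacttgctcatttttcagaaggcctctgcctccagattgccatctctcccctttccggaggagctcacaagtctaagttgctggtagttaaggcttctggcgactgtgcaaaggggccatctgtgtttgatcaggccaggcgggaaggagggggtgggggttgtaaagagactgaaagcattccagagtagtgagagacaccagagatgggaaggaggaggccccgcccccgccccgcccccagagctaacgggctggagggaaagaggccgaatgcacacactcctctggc
Fcrls, chr3:87263475-87263774, minus strand: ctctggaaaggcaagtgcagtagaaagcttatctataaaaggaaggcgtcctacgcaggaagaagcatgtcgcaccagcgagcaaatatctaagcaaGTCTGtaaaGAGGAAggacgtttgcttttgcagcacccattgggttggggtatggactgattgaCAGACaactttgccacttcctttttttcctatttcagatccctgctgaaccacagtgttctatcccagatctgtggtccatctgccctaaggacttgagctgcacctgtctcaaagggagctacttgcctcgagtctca

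The Smad core occurred once in the P2ry12 window, starting 210 bases before the start site, 2 times in the Cx3cr1 window (226 bases before and 30 after the start) and 2 times in the Fcrls window (153 and 89 bases before it). The PU.1 core occurred in the P2ry13 window, 48 bases before the start, and in the Fcrls window, 144 bases before it. Neither was found in the Olfml3 window. Of 32851 promoter windows of the same length in the table, 49.59% held CAGAC and 28.28% held GAGGAA, so such matches are common and describe the letters only.

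In the annotation used for names (GENCODE vM21), P2ry12 and P2ry13 lie next to each other on chromosome 3, both within the span of Med12l, which runs on the other strand. Their neighbours include Gpr171, P2ry14 and Igsf10. An exon of P2ry12 overlaps Med12l and an exon of Cx3cr1 (chromosome 9) overlaps the antisense gene Gm33858, and whether reads were assigned by strand is not stated in the labels. Med12l itself stayed at 0.33 TPM or less in all 17 libraries. Olfml3 and Fcrls are also on chromosome 3, Tmem119 on 5, Gpr34 on X, Siglech on 7, Sall1 on 8 and Slc2a5 on 4.

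**Figure D1:**
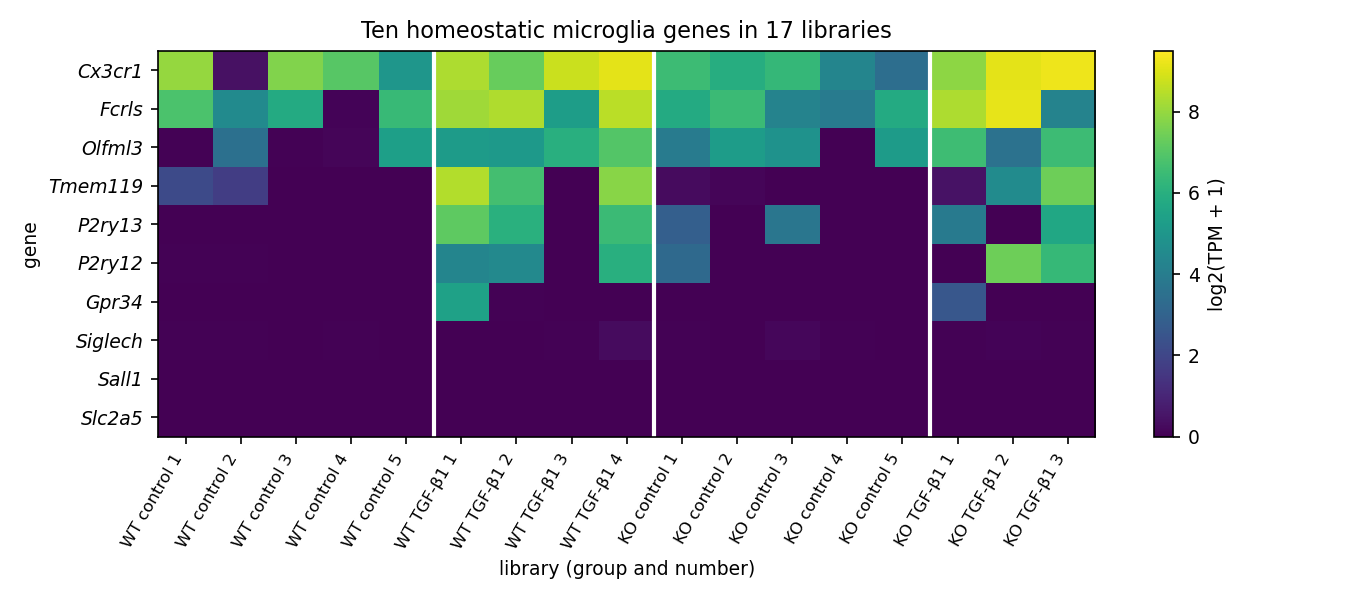
Level of the 10 genes (rows) in each of the 17 libraries (columns), as log2(TPM + 1) by colour; white lines divide the 4 groups, and KO stands for the knockout label. Cx3cr1, Fcrls and Olfml3 are coloured in most libraries, Tmem119, P2ry12 and P2ry13 mainly under TGF-β1, Gpr34 in 2 TGF-β1 libraries, and Siglech, Sall1 and Slc2a5 in none.

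The map of the 10 genes over the 17 libraries showed 3 patterns. Tmem119, P2ry12 and P2ry13 were at or near 0 in most controls and stood above 10 TPM in most TGF-β1 libraries. Cx3cr1, Fcrls and Olfml3 were present in most controls and had higher means with TGF-β1. Siglech, Sall1 and Slc2a5 were at or near 0 with or without it, and Gpr34 appeared in 2 TGF-β1 libraries.

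Tmem119, a transmembrane protein used to tell microglia from infiltrating macrophages, was listed at 3.41, 2.28, 0, 0 and 0 TPM in wild-type controls 1 to 5 and at 334.18, 99.64, 0 and 226.51 TPM in wild-type TGF-β1 libraries 1 to 4. With the knockout label it was at 0.20, 0.09, 0, 0 and 0 TPM in controls and at 0.38, 23.04 and 170.32 TPM with TGF-β1. Of the TGF-β1 libraries, 5 of 7 stood above every control, wild-type library 3 was at 0 and knockout-labelled library 1 lay within the control range. The wild-type mean was 165 ± 146 TPM with TGF-β1 (SD, n = 4) and 1.14 ± 1.61 TPM without (SD, n = 5), a difference of 4.95 ± 1.49 (SE) on the log2(TPM + 1) scale, which limma gave an adjusted p of 0.226. That scale understates the change of low genes.

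P2ry12 encodes the ADP receptor by which microglia send processes towards injured cells. In wild type it was at 0.05, 0.03, 0, 0 and 0 TPM in controls and at 18.77, 21.10, 0 and 63.22 TPM with TGF-β1. In the knockout-labelled libraries it was at 8.47, 0, 0, 0 and 0 TPM in controls and at 0, 166.59 and 81.15 TPM with TGF-β1. The same 5 TGF-β1 libraries that held Tmem119 at TPM 1 or more held P2ry12, and the remaining 2 listed it at 0. The log2 difference was 3.67 ± 1.34 (limma adjusted p = 0.349) in wild type and 3.93 ± 1.46 (adjusted p = 0.724) with the knockout label.

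P2ry13, another ADP receptor and the next gene to P2ry12, was at 0, 0.02, 0, 0 and 0 TPM in wild-type controls and at 139.58, 64.25, 0 and 88.82 TPM in wild-type TGF-β1 libraries. In knockout-labelled libraries it was at 6.25, 0, 12.34, 0 and 0 TPM in controls and at 14.02, 0.02 and 49.48 TPM with TGF-β1. The neighbours therefore did not always appear together: 5 TGF-β1 libraries held each receptor at TPM 1 or more, 4 held both and 1 held neither. Knockout-labelled TGF-β1 library 1 held P2ry13 without P2ry12, and library 2 held P2ry12 without P2ry13. The wild-type log2 difference of P2ry13 was 4.91 ± 1.38 (limma adjusted p = 0.180), against 1.88 ± 1.51 (adjusted p = 0.925) with the knockout label.

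Cx3cr1, the receptor for the neuronal chemokine fractalkine, had the highest mean level of the 10 genes. It was at 254.82, 0.36, 205.06, 130.99 and 31.06 TPM in wild-type controls and at 321.39, 156.78, 431.12 and 546.32 TPM with TGF-β1. With the knockout label it was at 89.85, 59.64, 79.92, 19.03 and 9.86 TPM in controls and at 236.74, 551.55 and 612.08 TPM with TGF-β1. The wild-type groups overlapped and the knockout-labelled groups did not. Wild-type control 2 stood far below the other 4 controls of its group. The log2 difference was 2.74 ± 1.10 in wild type (limma adjusted p = 0.421) and 3.45 ± 1.20 with the knockout label (adjusted p = 0.699).

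Fcrls, a scavenger receptor-like protein related to Fc receptors, was at 111.39, 22.43, 54.56, 0.07 and 83.04 TPM in wild-type controls and at 283.26, 328.96, 38.29 and 368.14 TPM with TGF-β1. In knockout-labelled libraries it was at 55.13, 88.65, 18.09, 14.52 and 54.32 TPM in controls and at 322.76, 563.33 and 17.92 TPM with TGF-β1. In each genotype label 1 TGF-β1 library (wild-type 3, knockout-labelled 3) lay within the control range and the others lay above it. The log2 differences were 2.86 ± 1.18 (limma adjusted p = 0.436) and 1.98 ± 1.28 (adjusted p = 0.883).

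Olfml3, a secreted olfactomedin-domain protein, was at 0.03, 10.46, 0.03, 0.09 and 40.46 TPM in wild-type controls and at 36.22, 33.58, 62.36 and 123.16 TPM with TGF-β1. With the knockout label it was at 14.52, 37.44, 27.50, 0 and 36.24 TPM in controls and at 92.55, 10.94 and 90.78 TPM with TGF-β1. The groups overlapped under both labels, and the spread among wild-type controls reached from near 0 to the TGF-β1 level. The log2 differences were 4.0 ± 1.24 (limma adjusted p = 0.247) in wild type and 1.69 ± 1.36 (adjusted p = 0.925) with the knockout label.

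**Figure D2:**
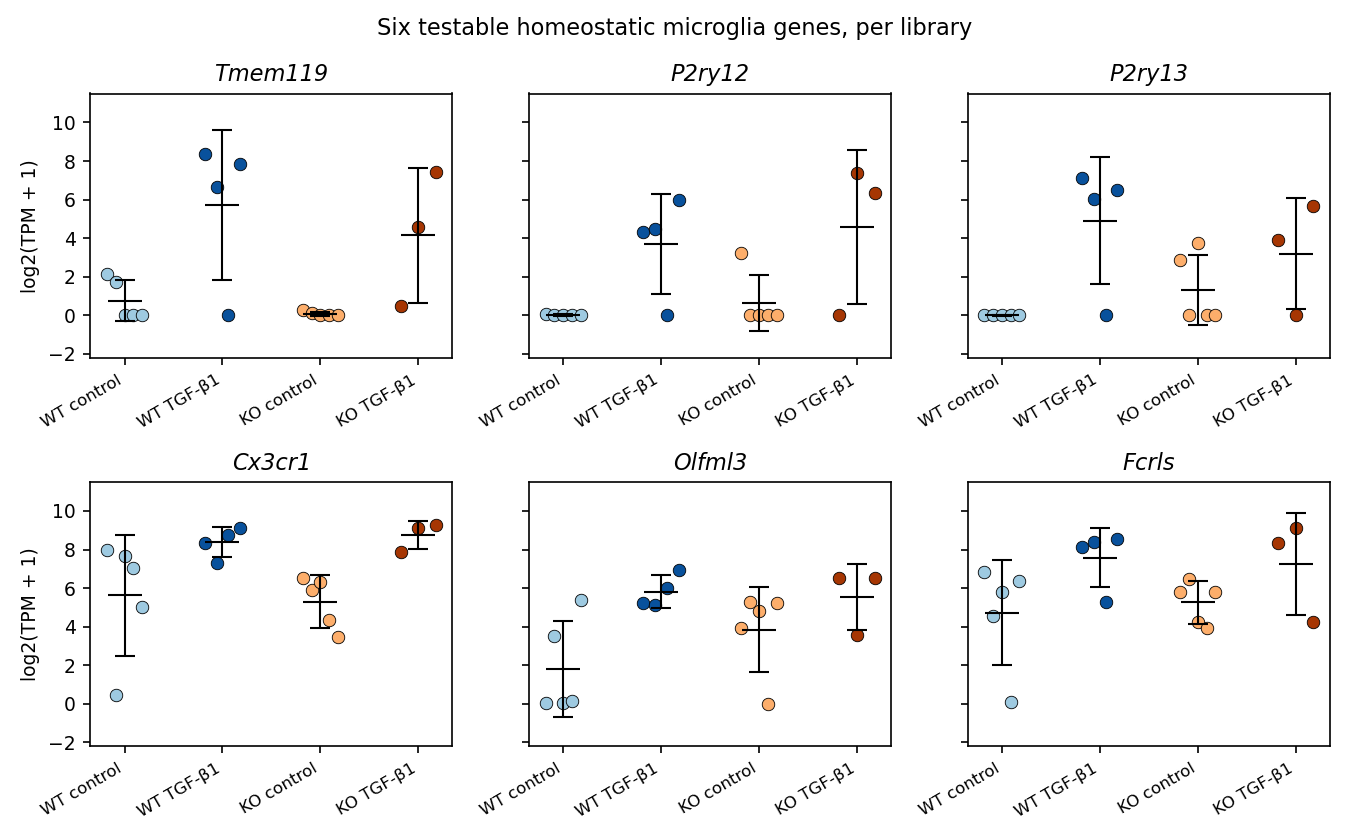
The 6 testable members: each point is 1 library, as log2(TPM + 1) on a shared axis, and bars show the group mean ± SD (n = 5, 4, 5 and 3); KO stands for the knockout label. Wild-type TGF-β1 library 3 sits at 0 for Tmem119, P2ry12 and P2ry13, while its Cx3cr1 (431.12 TPM) and Olfml3 (62.36 TPM) lie with the other TGF-β1 libraries.

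The plot of the 6 genes by group shows that 1 library of its group stands apart for Tmem119 and both ADP receptors. Without wild-type TGF-β1 library 3, the wild-type log2 difference was 6.85 for Tmem119 (limma adjusted p = 0.0160) and 6.55 for P2ry13 (adjusted p = 0.0212), and both passed the test. The library stands apart by its 0 values of these same genes. Leaving it out therefore had to raise their differences, and these calls lend no support to a change. That library listed 14.84% of moderately expressed genes at 0, the highest share of the 17. In the other wild-type TGF-β1 libraries Tmem119 and P2ry13 stood above the 10 to 50 TPM that defines those genes, so this share was not measured at their level. Whether the 0 values of Tmem119, P2ry12 and P2ry13 in library 3 come from many genes being listed at 0 was not tested. Once all 6 libraries listing more than 10% of moderately expressed genes at 0 were left out, no member passed the test. The limma adjusted p then ran from 0.130 to 0.474 in wild type and from 0.125 to 0.460 on average.

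Gpr34, a receptor for lysophosphatidylserine, was listed at 42.21 and 0.03 TPM in wild-type TGF-β1 libraries 1 and 2, at 5.02 TPM in knockout-labelled TGF-β1 library 1 and at 0 in the other 14 libraries. Siglech, a sialic acid-binding receptor, never exceeded 0.20 TPM. Sall1, the transcription factor of the set, was listed at 0 in 16 libraries and at 0.01 TPM in wild-type control 5, and Slc2a5 at 0 in all 17. These 4 genes were below the level asked for testing. With no filter on low values, 19835 genes were tested, and the wild-type log2 difference was 1.37 ± 0.91 for Gpr34 (limma adjusted p = 0.783) and 0.05 ± 0.05 for Siglech (adjusted p = 0.826). Under the knockout label they were 0.86 ± 0.99 for Gpr34 (adjusted p = 0.977) and 0.0062 ± 0.051 for Siglech (adjusted p = 1), and on average 1.12 ± 0.67 (adjusted p = 0.748) and 0.028 ± 0.035 (adjusted p = 0.812). The TGF-β1 effect on Gpr34 differed between the labels by -0.51 ± 1.34 (adjusted p = 0.951).

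No member passed the test in wild type, where 22 of 12158 genes (0.181%) were called at a limma adjusted p under 0.05 with Benjamini-Hochberg adjustment over all genes tested. All 6 testable members had a positive difference and an unadjusted p under 0.05, and 6.7% of all genes tested were higher at that level. Their median log2 difference was 3.83 beside 0.09 for all genes tested. Tmem119, P2ry12 and P2ry13 passed the filter mainly through the TGF-β1 libraries (5 of 7 each at TPM 1 or more, against 2, 1 and 2 of 10 controls), so these counts and the median describe the genes and lend no support to a change of the set. None of the 6 had all wild-type TGF-β1 libraries above all controls, which held for 1.8% of genes tested.

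Under the knockout label no member passed either, and 1 gene in all (0.00823%) did. All 6 differences were again positive, 3 of them (Tmem119, P2ry12 and Cx3cr1) at an unadjusted p under 0.05, beside 3.73% of all genes higher at that level. The median was 2.71, against 0.07 for all genes. Given how Tmem119, P2ry12 and P2ry13 passed the filter, these values again describe the genes and lend no support to a change of the set. Tmem119 (at most 0.20 TPM in controls, at least 0.38 with TGF-β1) and Cx3cr1 (at most 89.85, at least 236.74) did not overlap between the groups, which was so for 3.05% of genes tested. For Tmem119 both of these bounds lie below TPM 1.

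**Figure D3:**
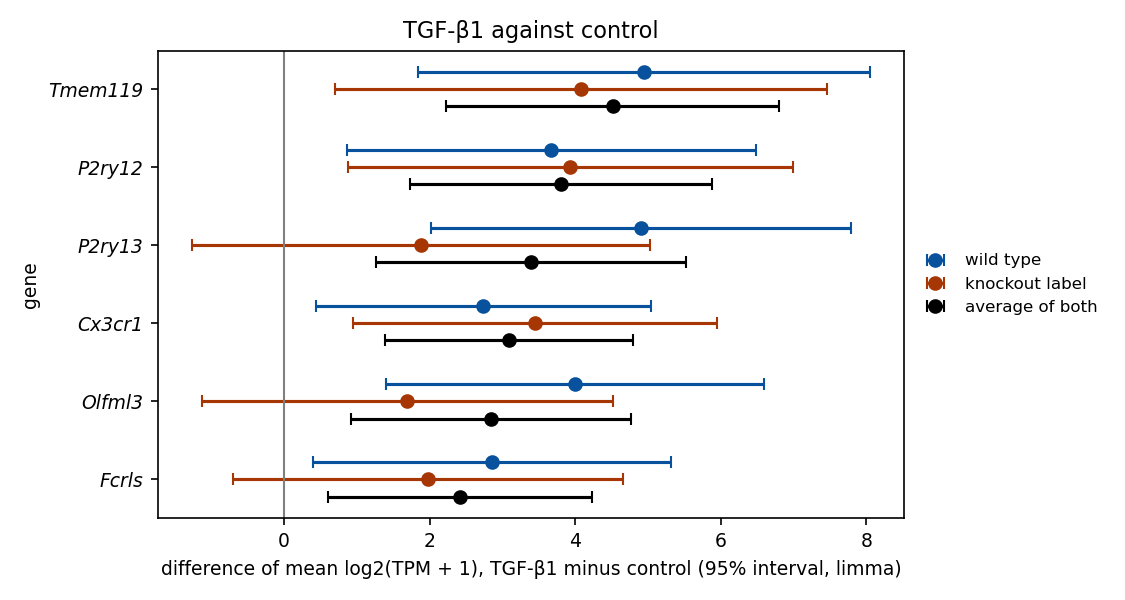
Difference between TGF-β1 and control libraries in mean log2(TPM + 1) for the 6 testable members, in wild type, under the knockout label, and as the average of both; bars are 95% intervals from limma. All points lie right of 0, from 1.69 to 4.95, and the intervals of P2ry13, Olfml3 and Fcrls under the knockout label reach below 0.

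Averaged over both labels, the log2 differences were 4.51 ± 1.10 for Tmem119 (limma adjusted p = 0.0840), 3.80 ± 0.99 for P2ry12 (adjusted p = 0.107), 3.39 ± 1.02 for P2ry13 (0.176), 3.09 ± 0.81 for Cx3cr1 (0.110), 2.85 ± 0.92 for Olfml3 (0.225) and 2.42 ± 0.87 for Fcrls (0.289). No member was called, beside 0.378% of all genes. All 6 had an unadjusted p under 0.05, beside 7.58% of all genes higher at that level, and none had all 7 TGF-β1 libraries above all 10 controls, which held for 0.0823%. The limit set by the filter on Tmem119, P2ry12 and P2ry13 holds for this count as well. The plotted intervals show how wide these estimates are. Without wild-type TGF-β1 library 3, Tmem119 (5.47, adjusted p = 0.0067), P2ry12 (4.42, adjusted p = 0.0383) and P2ry13 (4.21, adjusted p = 0.0338) passed the test. Without knockout-labelled TGF-β1 library 1, Tmem119 (5.44, adjusted p = 0.0244) and P2ry12 (4.95, adjusted p = 0.0101) passed, and without wild-type control 2, Cx3cr1 did (2.44, adjusted p = 0.0416). Each of these libraries held the lowest values of its group for the genes named. Leaving it out narrows their spread, so the calls gained lend no support to a change.

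The next question was whether the response differed with the Smad3 label. The difference of the TGF-β1 effects (knockout label minus wild type) was -0.87 for Tmem119, 0.26 for P2ry12, -3.03 for P2ry13, 0.71 for Cx3cr1, -2.30 for Olfml3 and -0.87 for Fcrls on the log2 scale. None passed limma's test (adjusted p 0.997 to 0.998), none had an unadjusted p under 0.05 (4.68% of all genes did), and 0 of 12158 genes were called (0%). The intervals are wide: for Tmem119 the 95% interval ran from -5.45 to 3.72 and for P2ry13 from -7.30 to 1.24, so neither a loss nor a gain of the response under the label could be resolved with these libraries.

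Between the controls, the knockout label differed from wild type by -0.69 (Tmem119), 0.63 (P2ry12), 1.31 (P2ry13), -0.33 (Cx3cr1), 2.03 (Olfml3) and 0.53 (Fcrls), with limma adjusted p between 0.899 and 0.990 and no member called beside 0.148% of all genes. None had an unadjusted p under 0.05, beside 5.82% of all genes. With TGF-β1 the differences were -1.56, 0.89, -1.71, 0.38, -0.27 and -0.34 in the same order, all with an adjusted p of 1 and no member called beside 0.156% of all genes, and none had an unadjusted p under 0.05, beside 5.25%. Several of these signs turned when 1 library was left out. Since Smad3 transcript did not follow the labels and cannot decide whether they are right, these differences describe the labels only.

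The summed abundance of the 10 genes is given as a description, with no test. It was between 33.6 and 369.74 TPM in the 10 controls and between 531.82 and 1416.37 TPM in the 7 TGF-β1 libraries. The sums did not overlap between the treatments. No single member had all 7 TGF-β1 libraries above all 10 controls. The sum of the wider microglia list described below did not overlap either (3338.61 to 5798.27 TPM in controls, 7038.88 to 13288.28 TPM with TGF-β1). Both lists were chosen with earlier results of these data known, and how often the sum of any list separates was not assessed. Neither sum therefore lends support to a change of the set. Cx3cr1 and Fcrls made up most of the sum of the 10 genes, 63.91% to 99.99% of it in controls and 51.43% to 88.26% with TGF-β1. The number of members at TPM 1 or more was 3, 3, 2, 1 and 3 in wild-type controls and 7, 6, 3 and 6 with TGF-β1. With the knockout label it was 5, 3, 4, 2 and 3 in controls and 5, 5 and 6 with TGF-β1. By this number wild-type TGF-β1 library 1 held the most, and Gpr34 joined the other 6 there. By summed TPM, wild-type TGF-β1 library 4 (1416.37) and knockout-labelled TGF-β1 library 2 (1315.54) exceeded it (1175.61).

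Within a library the members differed widely in rank. Ranked by TPM, Cx3cr1 stood between places 210 and 1077 in the TGF-β1 libraries, and in the 9 controls at TPM 1 or more between places 591 and 6222. Tmem119, in the 5 TGF-β1 libraries at TPM 1 or more, stood between places 506 and 4956, and in the 2 such controls at places 7838 and 8598.

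Cell cycle transcripts were read beside the members. Of 22 cell cycle genes such as Mki67 and Top2a, all were tested, 21 had a positive difference in wild type (median log2 difference 2.22) and 21 under the knockout label (median 2.32), beside 53.8% and 53.1% of all genes tested with a positive difference. None was called in either or on average. This list too was chosen with earlier results of these data known, so the counts and medians describe its genes only. Their mean log2(TPM + 1) in a library ranged from 2.93 to 7.11 in wild-type controls, 7.16 to 7.77 with TGF-β1, 4.80 to 7.27 in knockout-labelled controls and 7.30 to 7.83 with TGF-β1. A single control, knockout-labelled control 1, lay within the TGF-β1 range. It held P2ry12 (8.47 TPM) and P2ry13 (6.25 TPM), and Tmem119 was at 0.20 TPM there. The next highest controls, wild-type 5 (cell cycle level 7.11) and wild-type 2 (6.92), lay just below that range. In these P2ry12 was at 0 and 0.03 TPM, P2ry13 at 0 and 0.02 TPM, and Tmem119 at 0 and 2.28 TPM.

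**Figure D4:**
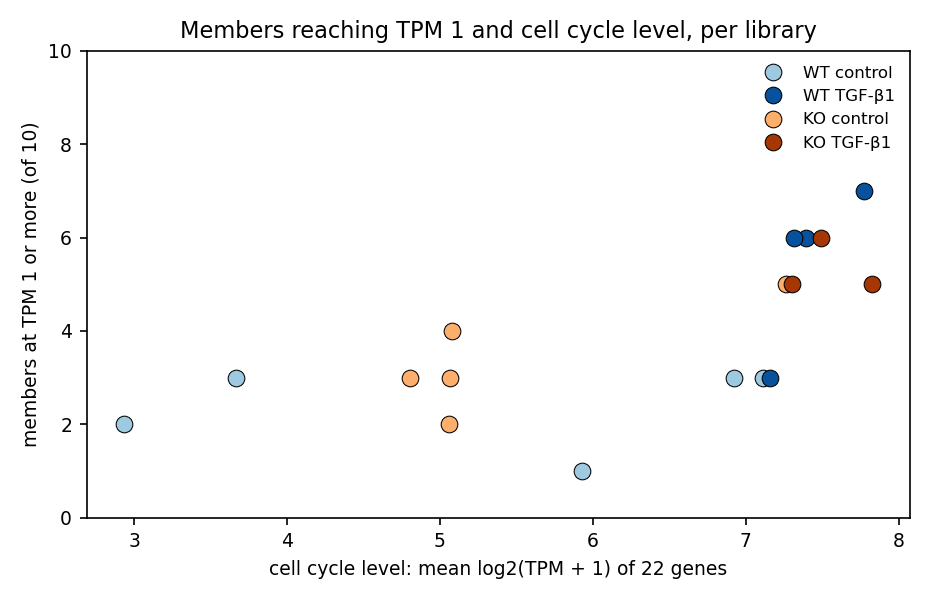
Each point is 1 library: the mean log2(TPM + 1) of 22 cell cycle genes (horizontal) and the number of the 10 members at TPM 1 or more (vertical); KO stands for the knockout label. The 7 TGF-β1 libraries all lie at a cell cycle level of 7.16 or more, where 1 of 10 controls (5 members) also lies.

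With the cell cycle level as a covariate, the averaged log2 differences were 4.22 for Tmem119, 2.86 for P2ry12, 2.90 for P2ry13, 4.64 for Cx3cr1, 1.32 for Olfml3 and 2.85 for Fcrls, and no member was called (limma adjusted p 0.103 to 0.886). Without the covariate the estimates were 4.51 for Tmem119, 3.80 for P2ry12, 3.39 for P2ry13 and 2.42 for Fcrls. Those of Cx3cr1 (3.09 without the covariate) and Olfml3 (2.85 without it) moved the most on the log2 scale, in opposite directions. The plot of members against cell cycle level shows that the treatments share little of its range, and the part of the cell cycle in the results cannot be told apart beyond this fit.

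Markers of other cells were read in the same libraries. The monocyte genes Ly6c2, Plac8 and Vcan were listed at 0 in all 17 libraries. The 7 monocyte genes summed to between 0.04 and 77.18 TPM in controls and between 6.96 and 114.56 TPM with TGF-β1, all from 4 genes of the list, mostly Spn (at most 76.61 and 99.62 TPM). Of 10 plasmacytoid dendritic cell genes, the defining Ly6d, Klk1 and Pacsin1 were at 0 in all libraries, and the list summed to between 131.24 and 367.96 TPM in controls and between 157.58 and 495.91 TPM with TGF-β1. Bst2 (39.52 to 323.28 TPM in controls, 118.65 to 332.33 TPM with TGF-β1), Irf7 (at most 129.58 and 146.91 TPM), Tcf4 (at most 71.72 and 68.67 TPM) and Runx2 (at most 30.96 and 64.1 TPM) carried most of it, and these genes are not specific to those cells. The part of these lists in the results was not tested. The neuron and glia genes Syt1, Rbfox3, Gfap and Mog were at 0 throughout, and the list of 10 summed to at most 68.84 TPM. Mbp carried most of that sum (4.76 to 56.44 TPM in controls, 9.45 to 68.64 TPM with TGF-β1). Aldh1l1 reached 14.22 TPM in a wild-type TGF-β1 library. Fibroblast genes summed to at most 22.47 TPM, from Acta2 in a wild-type TGF-β1 library, and 5 of 8 were at 0 throughout. Lymphocyte genes summed to at most 1.97 TPM and dendritic cell genes to at most 19.22 TPM. Of 6 neutrophil genes 5 were at 0 in all libraries, and S100a8 reached 132.22 TPM in a control and was at 0 with TGF-β1.

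Relatives of the members were mostly low. P2ry14, a nucleotide sugar receptor of the same gene row as P2ry12, was at 16.15 and 20.22 TPM in wild-type TGF-β1 libraries 2 and 4, at 22.62 and 0.33 TPM in knockout-labelled TGF-β1 libraries 2 and 3, and at 9.64 and 7.13 TPM in knockout-labelled controls 1 and 4. It was at 0 in the other 11 libraries, and its averaged log2 difference was 1.25 ± 0.82 (limma adjusted p = 0.615). Gpr171, also of that row, was listed at 0 in all libraries. Among 17 purine and nucleotide receptors and enzymes 8 were tested and none called in wild type or on average. P2ry6, a receptor for UDP, was the most abundant of its subfamily, with 152 ± 42.0 TPM in controls (SD, n = 10) and 176 ± 84.5 TPM with TGF-β1 (SD, n = 7).

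Slc2a5 stayed at 0, while other members of the sugar transporter family were present. The glucose transporter Slc2a1 was at 96.2 ± 64.5 TPM in controls (SD, n = 10) and 63.6 ± 42.3 TPM with TGF-β1 (SD, n = 7). Slc2a6 was at 34.0 ± 65.1 and 82.7 ± 76.1 TPM, an averaged log2 difference of 3.10 ± 1.05 (limma adjusted p = 0.246), and Slc2a8 differed by 2.66 ± 1.07 (adjusted p = 0.345). Of 10 such transporters 5 were tested and none called. Sall2, Sall3, Sall4, Olfml1 and Olfml2a, relatives of Sall1 and Olfml3, were at 0 in all libraries. Among 12 lectins and receptors related to Siglech and Fcrls, 6 were tested and none called, Cd33 having the largest averaged difference (0.69 ± 0.97, adjusted p = 0.861).

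On the ligand side of Cx3cr1, fractalkine itself (Cx3cl1) was at 0 in all TGF-β1 libraries and reached TPM 1 in 1 of 10 controls, at 28.30 TPM. Adam10, a protease that sheds fractalkine, was at 43.4 ± 17.6 TPM in controls (SD, n = 10) and 91.8 ± 21.6 TPM with TGF-β1 (SD, n = 7), with an averaged log2 difference of 1.12 ± 0.36 (limma adjusted p = 0.217). None of the 5 tested genes of the fractalkine list was called.

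A wider list of 31 genes typical of microglia held changes that passed the test. Of its 25 tested genes, 3 rose with TGF-β1 on average over both labels, none fell, and the background was 0.378%. They were Cst3, the protease inhibitor cystatin C (0.94 ± 0.17, limma adjusted p = 0.0137), Csf1r, the M-CSF receptor (1.32 ± 0.27, adjusted p = 0.0244), and C1qc, a chain of complement C1q (3.55 ± 0.77, adjusted p = 0.0451). Csf1r is also among the pan-macrophage genes named above. It was at 354 ± 149 TPM in controls (SD, n = 10) and 849 ± 239 TPM with TGF-β1 (SD, n = 7). In wild type alone Cst3 (1.16 ± 0.23, adjusted p = 0.0446) passed, and under the knockout label none did.

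Over the list, the 3 called genes included, 21 of 25 tested genes had a positive averaged difference (54% of all genes tested did), with a median of 1.06 against 0.08 for all genes tested. The list was chosen with earlier results of these data known. The count of called genes, this share and the median therefore describe its genes and lend no support to a change of the set. Of the 22 that did not pass, 18 had a positive difference. The largest among them were C1qa (5.08 ± 1.15, limma adjusted p = 0.0601), Rnase4 (3.37 ± 0.78, adjusted p = 0.0633) and Pros1, a ligand of phagocytic receptors (3.12 ± 1.03, adjusted p = 0.230). Trem2, a lipid-sensing receptor of microglia and macrophages, differed by 0.19 ± 0.19 (adjusted p = 0.789). The calls of Csf1r, Cst3 and C1qc were lost in 11, 6 and 17 of 28 alternatives. Leaving out a single library ended the call of Cst3 for knockout-labelled TGF-β1 libraries 2 and 3 (adjusted p 0.0648 to 0.0670). For Csf1r these were wild-type TGF-β1 libraries 3 and 4, knockout-labelled controls 2 and 5 and knockout-labelled TGF-β1 libraries 2 and 3 (0.0516 to 0.117). For C1qc they were all libraries but wild-type controls 2, 3 and 5, wild-type TGF-β1 library 3 and knockout-labelled control 3 (0.0516 to 0.129). In wild type alone, the call of Cst3 was lost without any of 10 libraries (0.0542 to 0.129).

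**Figure D5:**
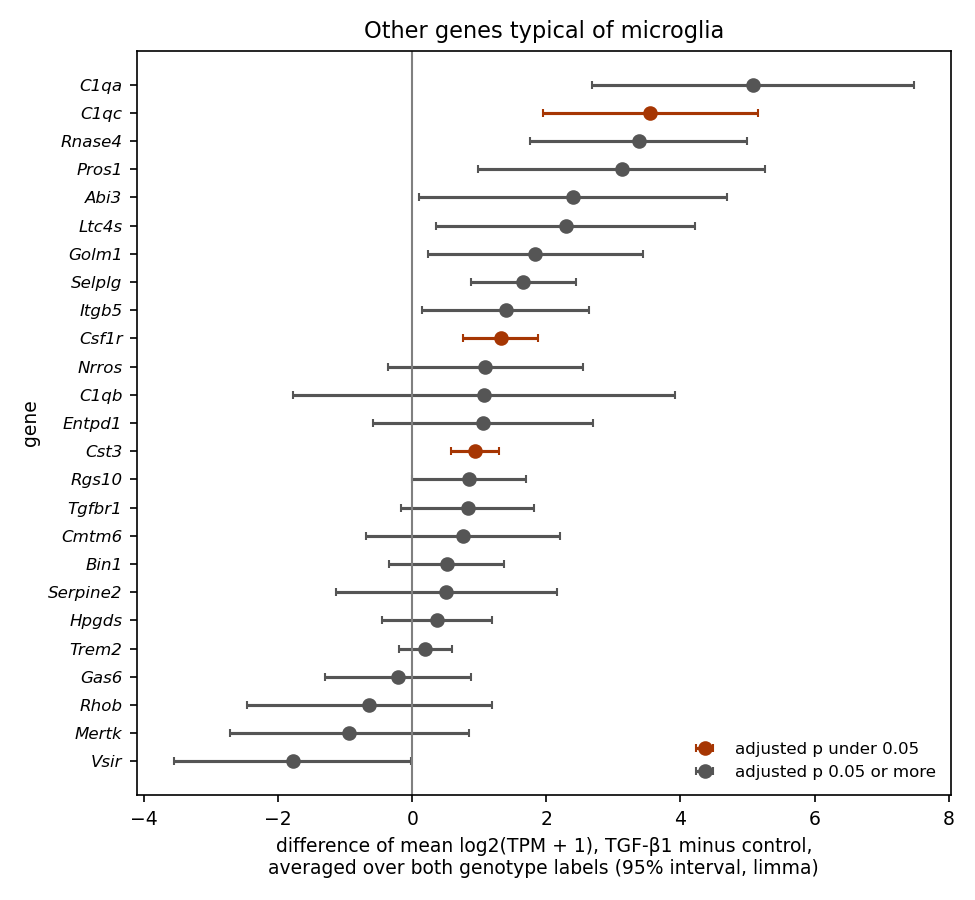
Difference between TGF-β1 and control in mean log2(TPM + 1), averaged over both genotype labels, for the 25 tested genes of the wider microglia list; bars are 95% intervals from limma, and the 3 coloured genes (Csf1r, Cst3 and C1qc) have an adjusted p under 0.05. C1qa lies furthest right at 5.08 with a wide interval, and 21 of 25 genes lie right of 0.

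Among genes that microglia raise in disease, the averaged calls were lower ones. The list of 20 was chosen with earlier results of these data known, so its counts and median describe its genes only. Of these 20 genes 19 were tested, with a median averaged difference of -0.44. On average 2 of them fell with TGF-β1, Lpl, which frees fatty acids from lipoproteins (-2.63 ± 0.40, limma adjusted p = 0.0033), and the lectin Lgals3 (-1.38 ± 0.25, adjusted p = 0.0123), and none rose. In wild type the same 2 fell (-3.61 ± 0.54, adjusted p = 0.0037, and -2.02 ± 0.34, adjusted p = 0.0085) and the lysosomal protease Ctsd rose (1.98 ± 0.30, adjusted p = 0.0037). Over all genes tested, 0.378% were called on average and 0.181% in wild type. Under the knockout label Ctsd differed by -0.40 ± 0.32 (adjusted p = 0.925), on average by 0.79 (adjusted p = 0.135), and the difference of the effects, -2.38 ± 0.44, did not pass (adjusted p = 0.300). Apoe, which carries lipids, differed by -2.64 ± 0.94 (adjusted p = 0.281) on average. It differed by -5.25 ± 1.27 in wild type (adjusted p = 0.0984), with 0.48 to 2053.01 TPM in controls and at most 0.19 TPM with TGF-β1. Under the knockout label it differed by -0.038 ± 1.39 (adjusted p = 1), no library holding more than 0.14 TPM, and the difference of the effects did not pass (5.21 ± 1.88, adjusted p = 0.997). The averaged calls of Lgals3 and Lpl were lost in 6 and 2 of 28 alternatives, and in wild type those of Lgals3, Lpl and Ctsd in 6, 2 and 3 of 29. The call of Lgals3 was lost on average without knockout-labelled TGF-β1 library 2 (-1.17, adjusted p = 0.0633) and in wild type without wild-type TGF-β1 library 4 (-1.83, adjusted p = 0.0547).

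Genes that carry or answer the TGF-β signal, and regulators of macrophages, were read from lists of 15 each. Of the signalling list 14 were tested and none called. Pmepa1 and Smad7, feedback inhibitors switched on by TGF-β, had the largest averaged differences, 2.98 ± 0.88 (limma adjusted p = 0.165) and 1.72 ± 0.79 (adjusted p = 0.430). Of 15 macrophage transcription factors 14 were tested and none called. Nr1h3, a sterol-sensing nuclear receptor, differed by -2.24 ± 0.91 (adjusted p = 0.350) and Mef2c by 1.15 ± 0.73 (adjusted p = 0.602).

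Genes with the most similar pattern over the 17 libraries were found by Pearson's r of log2(TPM + 1) among genes tested with a mean of at least 5 TPM. They describe these libraries, which share the treatment and the cell cycle level, and carry no test. For Tmem119 they were Gm11545 (r = 0.89), Mcam, an adhesion molecule (0.87), P2ry12 (0.85), Ccrl2 (0.84) and Cmtm7 (0.81). For P2ry13 they were C2cd3 (0.92), Gm11545 (0.84), Fbxl8 (0.80), Icosl (0.79) and Vipr1 (0.79). Cx3cr1 was most like Adam15 (0.89), Ccnd1, cyclin D1 (0.85), Rbm5 (0.85), Ptpn18 (0.85) and Manba (0.83). The mean of the 6 tested members was most like Gm11545 (0.93), Cst3 (0.91), Mtus1 (0.89), Il21r (0.86) and Mcam (0.85).

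Genes of macrophages elsewhere in the body did not pass the test. The tested genes numbered 3 of 9 for Kupffer cells, 2 of 9 for alveolar macrophages, 3 of 7 for Langerhans cells and 8 of 10 for macrophages of the brain's borders, and none was called in wild type or on average. Cbr2, typical of border macrophages, had the lowest averaged difference among them (-3.80, limma adjusted p = 0.0832). Runx3, which Langerhans cells require and which TGF-β is known to switch on, differed by 2.74 on average (adjusted p = 0.261).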

How the data were processed

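RNA was measured in 17 libraries made by SMART-seq2, which amplifies full-length cDNA from small amounts of RNA. Per the submitters' processing notes, reads passed FastQC and Trim Galore, and RSEM estimated expression on mouse build mm9, with no versions listed. The values the authors deposited are TPM, which have the same total in every library and hold no depth. Symbols came from GENCODE vM21 for 32897 of 37620 gene IDs, and promoter windows from RefSeq (GRCm38.p6), a build other than the submitters' own. RSEM divides reads among similar transcripts, so near-identical genes share values.

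Values were taken as log2(TPM + 1). Genes had to reach TPM 1 in 3 or more libraries, and the 12158 that did entered 1 fit in limma 3.58.1 (R 4.3.3, eBayes with trend) over the 4 groups taken from the titles, without covariates, and p-values were adjusted by Benjamini-Hochberg over all of them. The script was tested on simulated data. The sort by smooth muscle actin in the design text is not in the labels and was not analysed here. The members and gene lists were chosen with earlier results of these data known. The 6 tested members were named in every comparison, and the other 4 were given by level and without the filter. From other lists the called genes were named, or else up to 4 with the largest differences in the wild-type or averaged TGF-β1 comparison, and relatives and neighbours by level. Likeness took the 5 highest r. Some genes of the lists are not reported here. Lists of lymphocyte, neutrophil and dendritic cell markers were also read. Alternatives changed the pseudocount, filter, scaling, covariates, weights and libraries used.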

Additional observations from a re-analysis of the deposited data

Results flagged for a closer look

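In groups of 4 or 5 libraries, the highest or lowest value of log2(TPM + 1) was set against the others of its group by Dixon's 95% limit, for members reaching TPM 1 in the group. For normally distributed values this limit flags about 1 in 20 groups. Here 5 of 16 were flagged, but some groups are almost all at 0, where any single higher value is flagged. The count can therefore not be set against that rate. Wild-type TGF-β1 library 3 was far below its group for P2ry13 (0 TPM) and for Fcrls (38.29 TPM). Wild-type TGF-β1 library 1 was far above its group for Gpr34 (42.21 TPM). Among knockout-labelled controls, library 1 was far above the others for P2ry12 (8.47 TPM) and library 4 far below them for Olfml3 (0 TPM). No difference between the genotype labels in the TGF-β1 effect of a member passed the test.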

How the results depend on the processing

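Every TGF-β1 difference of the 6 tested members kept its positive sign in all 516 values recomputed under the alternatives, and 9 of these passed the test. The values are refits of the same libraries. Tmem119, P2ry12 and P2ry13 passed the filter mainly through TGF-β1 libraries, so the kept signs lend no further support to a change. With a pseudocount of 10, 1 member was called on average (Cx3cr1, 2.59, limma adjusted p = 0.0359). Leaving out 1 library at a time gave 0 to 2 members called in wild type and 0 to 3 on average, from the libraries named above. The median wild-type difference was 5.83 with a pseudocount of 0.1 and 2.10 with 10. Over all genes, 5 to 34 were called in wild type (22 as reported), 0 to 10 under the knockout label (1) and 2 to 71 on average (46). The called genes of the other lists were recomputed by a choice made after seeing the data.

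Same-numbered libraries of different groups did not deviate together (correlations -0.076 to 0.021 over 22 pairs), so no pairing by number was seen. Many of the values lie at or near 0, so a weak pairing could be missed. With a replicate block 0 members were called in any TGF-β1 comparison, the median in wild type was 4.10, and over all genes 11 were called in wild type and 21 on average.

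Differences between the genotype labels changed sign in 32 of 516 values, none of which passed the test, and the cause was not tested. For the difference of the effects, a pseudocount of 0.1 gave 0.19 (Tmem119) and -0.45 (P2ry12), array quality weights -1.05 (P2ry12), and omission of the 6 libraries with many zeros -2.50 (P2ry12) and -0.60 (Cx3cr1). Between controls, a covariate for the number of genes at TPM 1 gave 0.32 (Cx3cr1), weights -0.089 (Fcrls), and that omission 0.93 (Cx3cr1) and -0.73 (Fcrls). With TGF-β1, weights gave -0.38 (P2ry12) and 0.17 (Olfml3), and that omission -1.75 (P2ry12) and 0.77 (Olfml3). Leaving out 1 library at a time, the difference of effects ran from -2.77 to 0.98 (Tmem119), -1.14 to 2.55 (P2ry12) and -1.82 to 0.62 (Fcrls). Between controls it ran from -1.63 to 0.26 (Cx3cr1), -0.023 to 0.79 (P2ry12) and -0.63 to 1.05 (Fcrls), and with TGF-β1 from -3.47 to 0.29 (Tmem119), -0.51 to 3.18 (P2ry12), -0.77 to 0.72 (Olfml3) and -1.30 to 1.15 (Fcrls). Read depth is unknown, so a gene listed at 0 may be missed rather than absent.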
